A study of Homo sapiens with 4 samples.

Results

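The genes described here are 10 that drive cells into and out of mitosis, of 18417 genes measured. They are the cyclins CCNA2, CCNB1 and CCNB2, the kinase CDK1, the phosphatases CDC25B and CDC25C, CDC20, UBE2C and PTTG1 of the anaphase-promoting complex (APC/C) pathway, and the transcription factor FOXM1. They were chosen by gene symbol with earlier results of these data known, each had 1 probe set, and all 10 were at or above the floor described below in both lines. The study exposed the established human osteosarcoma lines HOS and U2-OS to OGE at 600 μg/mL or 0 μg/mL for 24 h and hybridised 1 array per combination, which gave the groups HOS with OGE, HOS control, U2-OS with OGE and U2-OS control. The labels do not spell out OGE and give no genotype, transgene or other agent for any group.

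Cyclin A2, cyclin B1 and cyclin B2 bind CDK1 and switch it on, and CDC25 phosphatases remove the phosphates with which WEE1 and PKMYT1 hold it back. The APC/C, a ubiquitin ligase, then ends mitosis: its activator CDC20 and its ubiquitin-conjugating enzyme UBE2C lead to destruction of the cyclins and of securin, the product of PTTG1, which frees separase to part the sister chromatids. Transcription of these genes peaks late in the cell cycle, under FOXM1, the B-MYB and MuvB complex and the CCAAT-binding factor NF-Y, while the DREAM complex holds it down in resting cells through a promoter element named the cell cycle genes homology region (CHR).

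The promoters of the 4 genes with the most negative mean change are shown because CCAAT boxes and CHR-like letters recur in them. The sequences are from RefSeq, build GRCh38.p14, whose table of windows from 250 bases before to 50 bases after a gene start held 8 of the 10 genes, all but UBE2C and FOXM1. Each line holds the 130 bases before the start, on the gene's strand, at chr4:121823884-121824013 (minus strand) for CCNA2, chr10:60778348-60778477 (plus strand) for the second of 2 starts of CDK1, chr15:59105016-59105145 (plus strand) for CCNB2 and chr5:69167020-69167149 (plus strand) for CCNB1. The CDK1 start was picked because its 130 bases held more of the motifs marked below. At the first CDK1 start the matches begin farther upstream, at -161, -150 and -131, so its 130 bases would show none. Capitals mark, on either strand, the box CCAAT, the CHR as TTTGAA, and its variants, which were spelled TTTAAA for the first, CTTGAA for another and TTCGAA for the last.
CCNA2: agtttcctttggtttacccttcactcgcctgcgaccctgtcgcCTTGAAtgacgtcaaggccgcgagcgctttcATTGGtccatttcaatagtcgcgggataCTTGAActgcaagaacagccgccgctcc
CDK1: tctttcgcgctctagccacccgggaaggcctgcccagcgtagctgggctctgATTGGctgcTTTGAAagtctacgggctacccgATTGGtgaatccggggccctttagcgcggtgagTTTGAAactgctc
CCNB2: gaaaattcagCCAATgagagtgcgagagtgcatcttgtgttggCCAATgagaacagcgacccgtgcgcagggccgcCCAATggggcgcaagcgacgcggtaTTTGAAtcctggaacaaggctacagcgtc
CCNB1: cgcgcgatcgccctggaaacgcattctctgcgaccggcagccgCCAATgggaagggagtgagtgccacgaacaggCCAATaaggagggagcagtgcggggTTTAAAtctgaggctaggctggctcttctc

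CCAAT lay in a window of all 8 genes, and of 39.7% of the 27305 genes in the table. TTTGAA lay in a window of CCNB2, CDK1, CDC20 and CDC25C, and of 18.2% of all genes. Both motifs shared a window in these 4 genes and in 7.26% of all genes. With the variants counted, all 8 genes had a window with both, against 14.9% of all genes. CCNB1, CCNB2 and CDK1 had CCAAT boxes whose first bases lay 31 to 33 bases apart, as 1.31% of all genes did. The variants and this spacing were chosen after the member sequences had been read, CDK1 and PTTG1 each had 2 windows and CDC25B and CDC25C each had 4, so the shares describe the letters only. Among the member windows, matches shared bases only in PTTG1, where CCAAT boxes on opposite strands begin at -51 and -48 of the first start, and the same pair lies at -106 and -103 of the second.

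**Figure D1:**
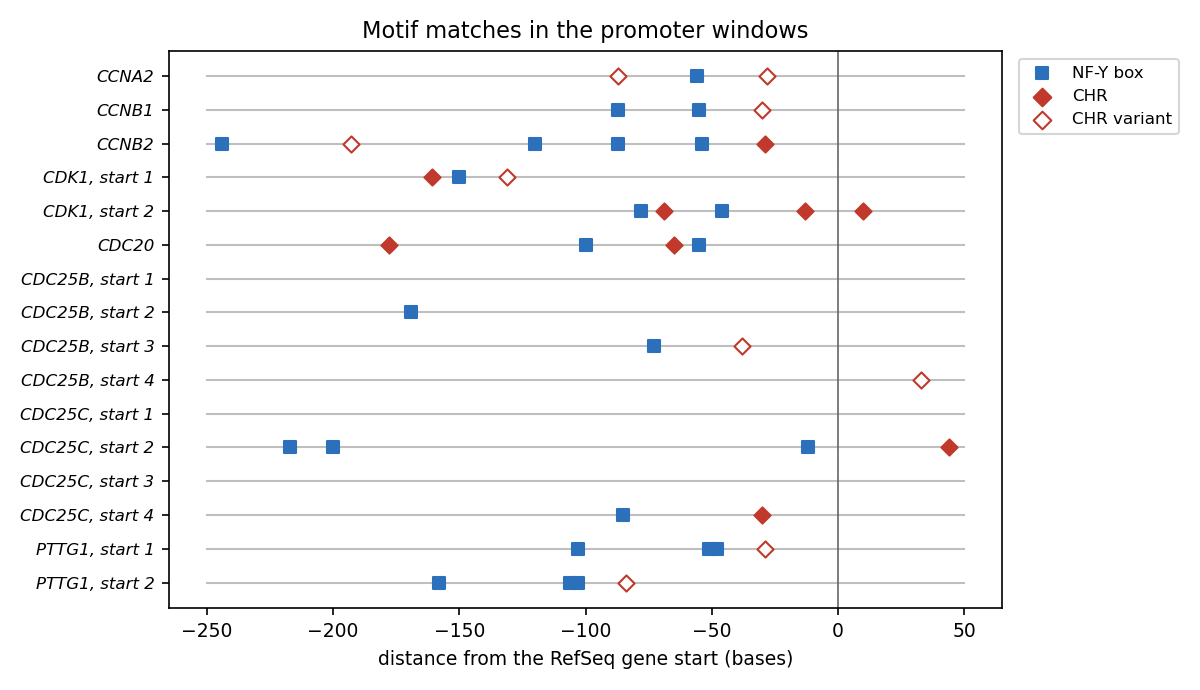
Motif matches in each RefSeq promoter window of the 8 genes in the table, as distance of the first base from the gene start (bases, horizontal axis), with 1 row per start site. Squares are CCAAT boxes (NF-Y box), filled diamonds the CHR letters and open diamonds CHR variants; CCNB1 and CCNB2 have boxes at -87 and at -55 or -54, with a CHR or variant at -30 or -29.

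All values below are RMA levels or differences of them on the log2 scale, OGE minus control within a line, each from 1 array per group. Array medians lay between 3.58 and 3.62. A gene was called lower or higher by size when the difference was at least 1 (2-fold) and the larger value was at or above its own array's median over all probe sets, the floor. The test across all genes was limma, with OGE and cell line as terms, so that the lines act as the repeats of OGE. Pairs of changes are given for HOS and then for U2-OS. Of 8 measured osteoblast lineage markers, 6 were at or above the floor in both lines, while IBSP and SPP1 lay between 1.62 and 2.71. These markers differed in direction with OGE: COL1A1 had changes of -0.94 and -1.75, SPARC of -0.73 and -1.40 and COL1A2 of -1.25 and -0.08, so that COL1A2 was lower by size in HOS, and COL1A1 and SPARC in U2-OS. RUNX2 had -0.60 and -0.59, while SP7 had 0.38 and 0.10, ALPL 0.00 and 0.66, SPP1 -0.01 and 0.74 and IBSP -0.17 and -0.05, and the median of the 8 was -0.385 and -0.065. Summed over the 8, their log2 levels were 42.19 in HOS with OGE, against 45.51 in HOS control, and 36.95 in U2-OS with OGE, against 39.32 in U2-OS control. Of other cell types' markers, 1 of 5 immune, 3 of 5 epithelial and 0 of 5 endothelial genes reached the floor in both lines. The immune one, the lysosomal protein CD68, had changes of 1.05 and 1.35, and the summed log2 level of the 5 was 13.65 in both OGE arrays, against 12.60 in HOS control and 11.51 in U2-OS control. The part of these markers in the results was not tested.

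With OGE, the 3 cyclins and CDK1 had changes from -0.76 to -1.65 over both lines, and UBE2C had -0.12 and -0.11. CDC25B, FOXM1 and CDC25C had changes of -0.05, -0.06 and -0.20 in HOS, against -0.43, -0.67 and -1.20 in U2-OS. All 10 had a negative change in both lines, as 32.0% of the 10811 genes that reached the floor in both did. Because the 10 were chosen with earlier results of these data known, the shares of all genes given here are descriptive. The 10 had a median of -0.405 for HOS and -0.84 for U2-OS, beside 0.02 and -0.01 over all genes at the floor. By size, 1 of 10 (2.18% of genes) passed in the HOS pair of arrays, and 4 of 10 (7.88% of genes) passed in the U2-OS pair, all of them lower. CCNB2 was the one in HOS and CCNA2, CCNB1, CDK1 and CDC25C were those in U2-OS, so 0 of 10 passed in both lines, against 1.09% of genes. Quantile normalization and cyclic loess each ended the calls of CCNB2 in HOS, at -0.943 and -0.995, and of CCNB1 in U2-OS, at -0.855 and -0.886. At 1.5-fold, 4 of 10 passed in HOS (9.68% of genes) and 8 in U2-OS (18.5% of genes), and CCNA2, CCNB1, CCNB2 and CDK1 passed in both (5.82% of genes). In these bulk samples fewer cells in G2 and mitosis and less RNA of these genes per cell cannot be told apart.

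**Figure D2:**
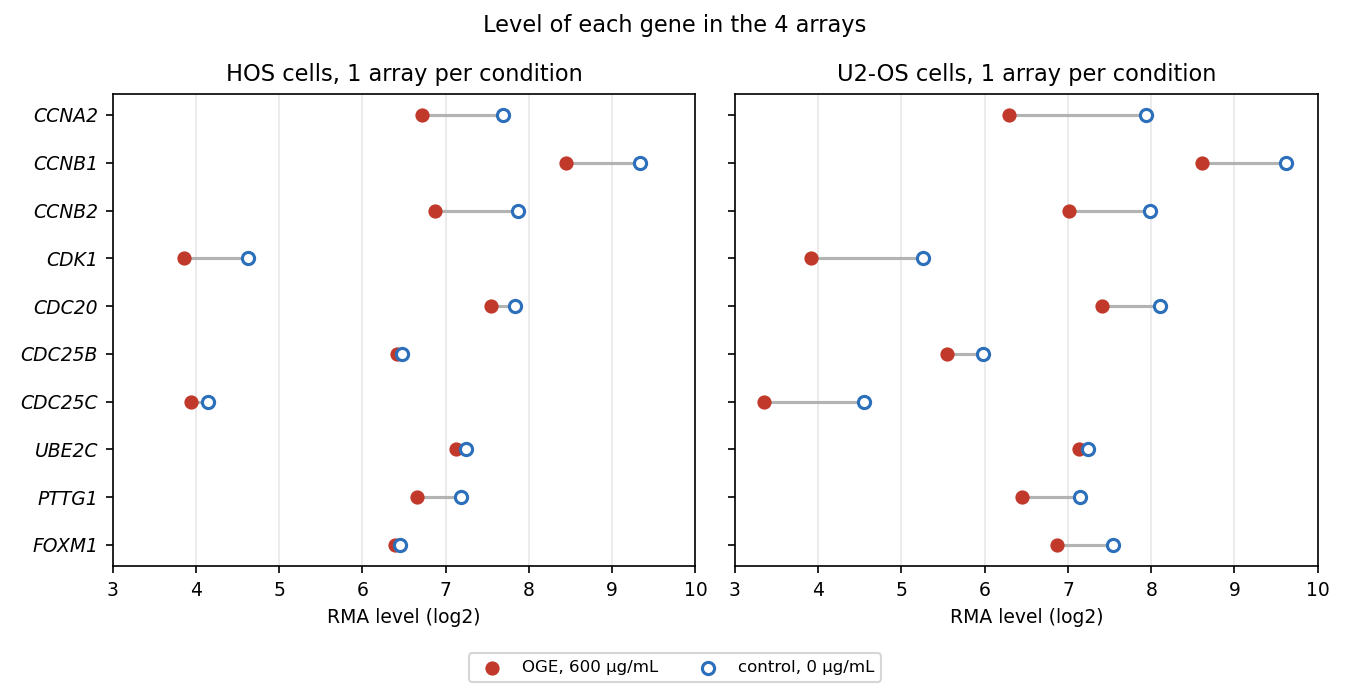
RMA level (log2, horizontal axis) of each gene in HOS (left) and U2-OS (right), with the OGE array filled and the control array open, 1 array each and no error bar. The OGE point lies left of the control point for all 10 genes in both lines, with a change of -1.65 for CCNA2 and of -0.11 for UBE2C in U2-OS.

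Cyclin A2 acts in S phase with CDK2 and in G2 with CDK1. CCNA2 stood at 6.72 in HOS with OGE, against 7.69 in HOS control, and at 6.29 in U2-OS with OGE, against 7.94 in U2-OS control. The OGE array was the lower one in each line, and U2-OS with OGE was the lowest of the 4. The changes were -0.97 and -1.65, so OGE levels were 51.1% and 31.9% of control. In HOS 2.43% and in U2-OS 1.46% of genes at the floor had a change as low. For CCNB1, CCNB2 and CDK1 such shares were 3.41%, 2.18% and 5.63% in HOS and 7.74%, 8.17% and 3.28% in U2-OS. In limma the coefficient of CCNA2 was -1.31 ± 0.232 (SE), with an adjusted p of 0.228 over all genes.

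Cyclin B1 is the main partner of CDK1 in mitosis. CCNB1 was measured at 8.45 in HOS with OGE, against 9.34 in HOS control, and at 8.61 in U2-OS with OGE, against 9.62 in U2-OS control. Both OGE values lay below both control values, and the changes of -0.89 and -1.01 differed by 0.12 in size between the lines. The mean change was -0.95 ± 0.085 (SD, n = 2 lines), with a limma adjusted p of 0.228.

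Cyclin B2, which localises largely to the Golgi region, resembles cyclin B1 in its destruction at anaphase. CCNB2 was at 6.87 in HOS with OGE, against 7.87 in HOS control, and at 7.01 in U2-OS with OGE, against 7.99 in U2-OS control. The OGE values again lay below both controls. The changes of -1.0 and -0.98 fall on either side of the size threshold although they differ by only 0.02, and the mean was -0.99 ± 0.014 (SD, n = 2 lines). The limma adjusted p was 0.228.

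CDK1 is the kinase that these cyclins activate. Its level was 3.86 in HOS with OGE, against 4.62 in HOS control, and 3.91 in U2-OS with OGE, against 5.26 in U2-OS control. The OGE arrays were close to each other and the control arrays were not, giving -0.76 for HOS and -1.35 for U2-OS. Both OGE values lay below both control values, only 0.24 and 0.31 above the medians of their arrays, against 1.02 and 1.68 for the controls. In limma the coefficient was -1.05 ± 0.218 (SE), with an adjusted p of 0.232.

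The CDC25 phosphatases activate CDK1, CDC25B early at the centrosome and CDC25C in a loop with CDK1 itself. CDC25C was at 3.94 in HOS with OGE, against 4.14 in HOS control, and at 3.35 in U2-OS with OGE, against 4.55 in U2-OS control. It was lower by size in U2-OS, with -1.20, and had a change of -0.20 in HOS. Its level in U2-OS with OGE lay below that array's median, so it reached the floor there through the control array alone and the size of the change is imprecise. CDC25B was at 6.42 in HOS with OGE, against 6.47 in HOS control, and at 5.55 in U2-OS with OGE, against 5.98 in U2-OS control. Its changes were -0.05 and -0.43, and it was lower in U2-OS than in HOS with and without OGE. Limma gave adjusted p-values of 0.377 for CDC25C and 0.622 for CDC25B. CDC25A, the phosphatase of the G1/S step, had changes of 0.96 in HOS and -0.33 in U2-OS; it is not a member and was named after its values had been seen.

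CDC20 brings substrates to the APC/C and is the target of the spindle checkpoint. CDC20 stood at 7.54 in HOS with OGE, against 7.83 in HOS control, and at 7.41 in U2-OS with OGE, against 8.11 in U2-OS control. The changes were -0.29 and -0.70, neither a call by size, with a limma adjusted p of 0.364.

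UBE2C, which starts ubiquitin chains on APC/C substrates, was at 7.12 in HOS with OGE, against 7.24 in HOS control, and at 7.13 in U2-OS with OGE, against 7.24 in U2-OS control. The 4 values lay close together, with the OGE array slightly below its control in each line. The changes of -0.12 and -0.11 are exceeded downwards by many genes: 36.7% of genes in HOS and 43.2% in U2-OS had a change as low. The limma coefficient was -0.115 ± 0.169 (SE), with an adjusted p of 0.802.

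PTTG1 encodes securin. It was at 6.66 in HOS with OGE, against 7.18 in HOS control, and at 6.45 in U2-OS with OGE, against 7.14 in U2-OS control. Both OGE values lay below both controls, and the controls differed by 0.04. The changes were -0.52 and -0.69, with a limma adjusted p of 0.275. The copies PTTG2 and PTTG3P, whose sequences resemble PTTG1, had levels from 0.79 to 1.75, below the array medians; cross-hybridisation was not tested.

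FOXM1 activates transcription of CCNB1, CDC25B and other late genes. It was at 6.39 in HOS with OGE, against 6.45 in HOS control, and at 6.87 in U2-OS with OGE, against 7.54 in U2-OS control. The line separated its 4 values more than OGE did: both U2-OS values lay above both HOS values. The changes were -0.06 and -0.67, with a limma adjusted p of 0.519.

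**Figure D3:**
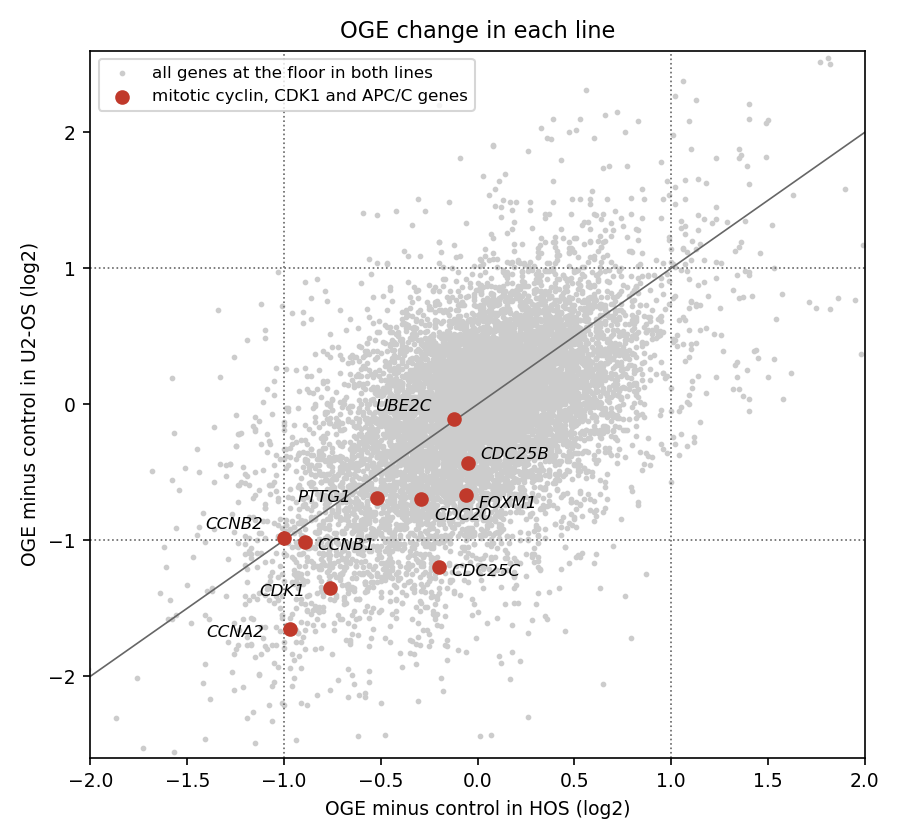
OGE minus control (log2) in HOS (horizontal axis) against U2-OS (vertical axis) for the 10 genes (red) and all 10811 genes at the floor in both lines (grey); dotted lines mark a 2-fold difference, the solid line equal change, and 41 genes lie outside the axes. CCNB2 and UBE2C sit on the line of equal change, and CDC25C at -0.20 and -1.20 lies farthest below it.

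Across the lines, limma called 0 of the 10 genes and 0% of the 18417 genes for OGE at an adjusted p under 0.05, with a smallest adjusted p of 0.228 over all genes. At an unadjusted p under 0.05 there were 5 of the 10, CCNA2, CCNB1, CCNB2, CDK1 and PTTG1, all lower, against 8.52% of all genes lower and 14.2% in either direction. After quantile normalization of the arrays, CCNA2 had an adjusted p of 0.0457 in limma, with a coefficient of -1.27 ± 0.229 (SE), and CDK1, CCNB2 and CCNB1 had 0.0588, 0.0646 and 0.0848. In that setting limma called 264 of the 18417 genes for OGE. The other limma settings called 0 of the members fitted, with a smallest adjusted p among them from 0.0803 to 0.761. The setting limited to genes at or above the median level fitted 9 of the 10. An exact permutation of treatment within the 2 lines could give no two-sided p below 0.5. The 1 residual degree of freedom of the fit is the disagreement of the OGE change between the 2 lines, which limma combines with the spread over all genes. The p-values measure the change against that spread, and not against repeated cultures or hybridisations. Separate cultures are not stated for the arrays, so the technical part of the values is not known.

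The change was more negative in U2-OS than in HOS for 8 of the 10, as for 53.6% of genes. The difference between the changes, U2-OS minus HOS, was -1.0 for CDC25C, -0.68 for CCNA2, -0.61 for FOXM1, -0.59 for CDK1, -0.41 for CDC20 and -0.38 for CDC25B. PTTG1 and CCNB1 differed by -0.17 and -0.12, and UBE2C and CCNB2 by 0.01 and 0.02. The median difference was -0.395, beside -0.05 over all genes at the floor in both lines. With 1 array for each group, no residual spread remains with which to test these differences.

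Between the lines, none of the 10 genes differed by size with the same sign in both states, as 6.17% of genes did, and limma called 0 of the 10, against 1.92% of genes. At an unadjusted p under 0.05 limma gave 2 of the 10, FOXM1 and CDC25B, against 20.7% of genes. FOXM1 differed by 0.48 with OGE and 1.09 in control, U2-OS minus HOS, with a limma adjusted p of 0.151, or 0.0469 after quantile normalization. In that setting limma called 1763 of the 18417 genes between the lines, against 354 as deposited. CDC25B differed by -0.87 with OGE and -0.49 in control, with a limma adjusted p of 0.150. The cyclins differed little in control, by 0.25 for CCNA2, 0.28 for CCNB1 and 0.12 for CCNB2, and UBE2C by 0.00.

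Of 14 measured partners and opponents of CDK1, HOS had 0 lower by size (2.18% of genes), U2-OS had 1 (7.88% of genes), and 0 were higher (1.70% and 2.94% of genes). The list's medians were -0.095 and -0.135. MASTL, the Greatwall kinase that restrains the phosphatase opposing CDK1, was lower by size in U2-OS with -1.16, and had -0.68 in HOS. Its substrate ARPP19 had -0.41 and -0.75, although its second probe set had -0.65 and -0.13. CKS1B, a small CDK-binding subunit, had 0.49 and 0.35. WEE1, the nuclear kinase that inhibits CDK1, had -0.14 and 0.83, but -0.47 and -0.10 on its second and -0.57 and -0.60 on its last probe set. PKMYT1, the membrane-bound inhibitory kinase, had 0.34 and 0.06, and CCNF, an F-box cyclin, -0.04 and -0.96. CDK2, the S phase partner of cyclin A2, had 0.00 and -0.80 and was named after its values had been seen.

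The ligase itself was measured through 14 core subunits, with medians of -0.125 and -0.425. HOS had 0 lower by size (2.18% of genes) and U2-OS had 1 (7.88% of genes), the TPR subunit CDC27 with -1.03, against -0.25 in HOS. CDC16 had -0.75 and -0.79, the scaffold ANAPC1 -0.81 and -0.57, and ANAPC16 -0.10 and -0.66. Among 8 activators, inhibitors and conjugating enzymes, the signs split, with 4 negative and 4 positive in both lines. Of the 8, 1 was lower by size in HOS (2.18% of genes), 3 in U2-OS (7.88% of genes) and 1 in both (1.09% of genes). The checkpoint inhibitor BUB1B was the one lower in both lines, with -1.05 and -2.04. MAD2L1, its partner in the mitotic checkpoint complex, had -0.57 and -1.36, FBXO5, the interphase APC/C inhibitor EMI1, -0.25 and -1.26, and BUB3 -0.46 and -0.83; MAD2L1 and FBXO5 were lower by size in U2-OS. FZR1, the activator CDH1 of late mitosis and G1, had 0.55 and 0.40. UBE2S, which extends the chains that UBE2C starts, had 0.40 and 0.04 and was named after its values had been seen.

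Of 20 measured substrates of the APC/C and cohesion genes, HOS had 3 lower by size and U2-OS had 11, with those 3 among them; 0 were higher, with medians of -0.285 and -1.115. Among all genes, HOS had 2.18% lower by size, U2-OS 7.88%, and 1.09% were lower in both, while 1.70% and 2.94% were higher in HOS and in U2-OS. The 3 were the mitotic kinesin KIF20A with -1.24 and -1.77, the centrosome kinase NEK2 with -1.18 and -1.44, and the kinase AURKA with -1.05 and -1.46. SMC1A, a cohesin subunit, had -0.99 and -1.62, and PLK1, the polo-like kinase that acts upstream of CDC25C, -0.16 and -0.68. KIF11, named for its low OGE level, had -0.31 and -2.18. It stood at 3.46 in U2-OS with OGE, below that array's median, and reached the floor there through the control alone. Genes known as FOXM1 targets, 14 measured, had medians of -0.64 and -1.48, with 2 lower by size in HOS, where 2.18% of genes were; the 9 in U2-OS, where 7.88% were, held those 2 (1.09% of genes in both). These were the kinetochore protein CENPF with -1.01 and -1.55 and the spindle midzone protein PRC1 with -1.01 and -1.41. CENPF stood at 3.11 in HOS with OGE and 2.80 in U2-OS with OGE, below the medians of those arrays, and reached the floor through the controls alone. DLGAP5 and KIF23, both spindle proteins, had -0.62 and -2.44 and -0.91 and -1.75. FOXM1 itself had smaller changes in size than each of these 4 in both lines, but the 4 were named for the largest mean changes of their list. Not every listed target changed more than FOXM1 in U2-OS, where FOXM1 had -0.67. CENPE had -0.43 there, MKI67 -0.63 and CENPB -0.53.

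Subunits of the DREAM and B-MYB complexes, 13 measured, had medians of -0.02 and -0.40, with 0 lower by size in HOS, against 2.18% of genes, and 2 in U2-OS, against 7.88%. These were the pocket proteins RBL1, with 0.26 in HOS and -1.68 in U2-OS, and RBL2, with -0.42 and -1.57. RBL1 stood at 3.01 in U2-OS with OGE, below that array's median. TFDP1, the partner of E2F factors, had -0.89 and -0.92, LIN37 0.55 and 0.77, and MYBL2, which encodes B-MYB, 0.29 and -0.34. Among 11 CDK inhibitors and checkpoint effectors, 2 were higher by size in HOS, where 1.70% of genes were, and 3 in U2-OS, where 2.94% were, and 1 was higher in both, against 0.768% of genes. In the other direction, U2-OS had 2 lower by size and HOS had 0; the 2 were CDKN1B and the checkpoint kinase CHEK1 (7.88% of genes). The gene higher in both was CDKN1A, which encodes the CDK inhibitor p21, with 1.02 and 1.47. GADD45A and GADD45B, stress genes known to restrain CDK1, had 0.65 and 1.74 and 0.95 and 1.78, and GADD45G had 2.13 and 0.15. CDKN1B, which encodes p27, had -0.41 and -1.29, and CHEK1, named because the count was small, had -0.36 and -1.12. Limma called none of the genes of these 7 lists at an adjusted p under 0.05.

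**Figure D4:**
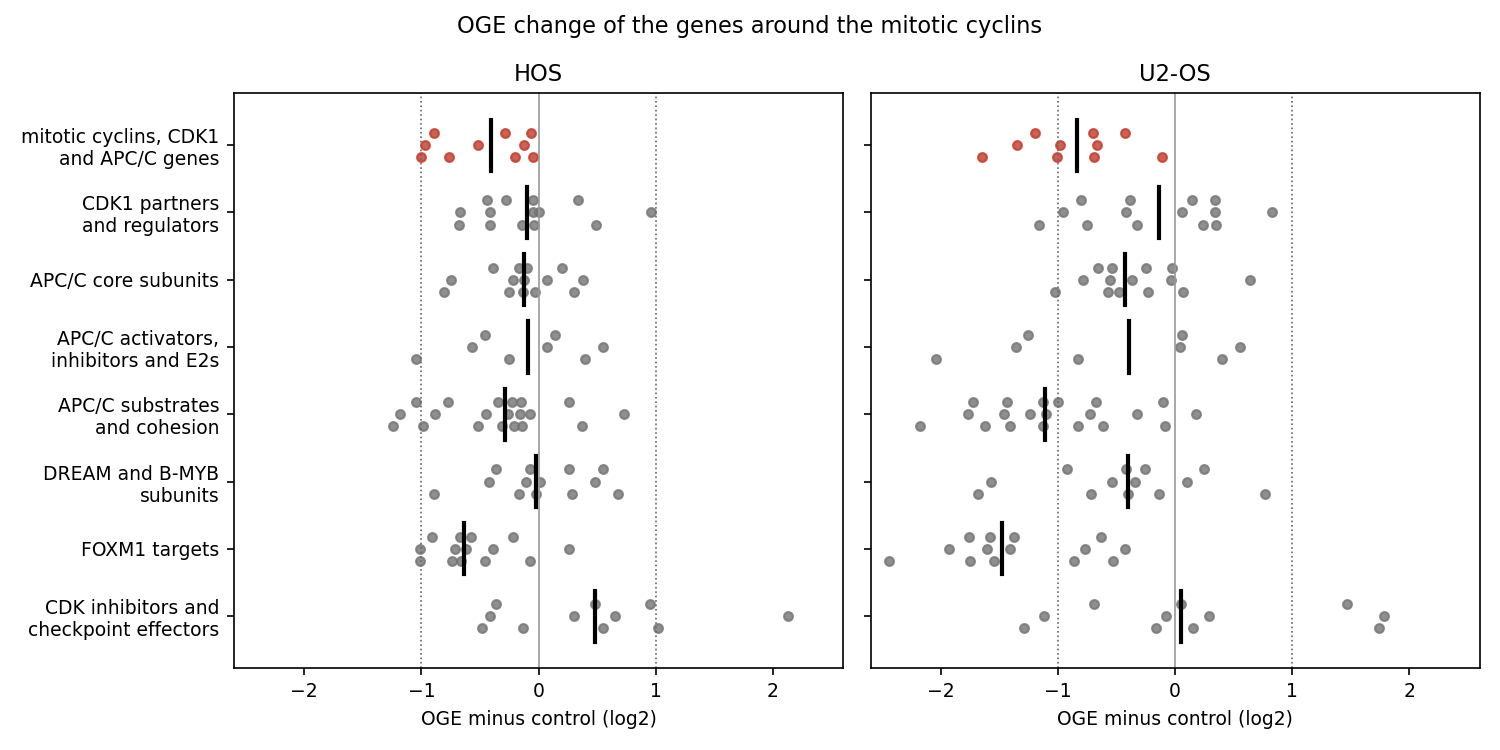
OGE minus control (log2, horizontal axis) for each measured gene of the 10 (red) and of 7 lists around them (grey) in HOS (left) and U2-OS (right), with the list's median as a bar and dotted lines at a 2-fold difference. The listed FOXM1 targets have the most negative median of these lists in both lines, -0.64 and -1.48. That list leaves out CCNB1 and CDC25B, which are among the 10. The median of CDK1 partners lies at -0.095 and -0.135.

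Median change differed with gene length, which was described and not tested. Genes that reached the floor in both lines were split, where RefSeq gave a span, into 3 equal groups of 3600, and the shortest, up to 12.7 kb, had medians of 0.11 and 0.17, with 0.917% and 1.75% lower by size. The middle group had 0.04 and -0.01, with 2.36% and 6.33% lower by size. The longest group, from 42.6 kb, had -0.10 and -0.24, with 2.89% and 13.5% lower by size. Of the 10 genes, 5 lay in the shortest group (CCNA2, CCNB1, CDC20, UBE2C and PTTG1), 4 in the middle and CDC25C, with 53.1 kb, in the longest. CCNA2, at 7.44 kb, and UBE2C, at 4.31 kb, are both short and had the largest and the smallest mean change in size of the 10. The part of span in the change of CDC25C was not tested.

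**Figure D5:**
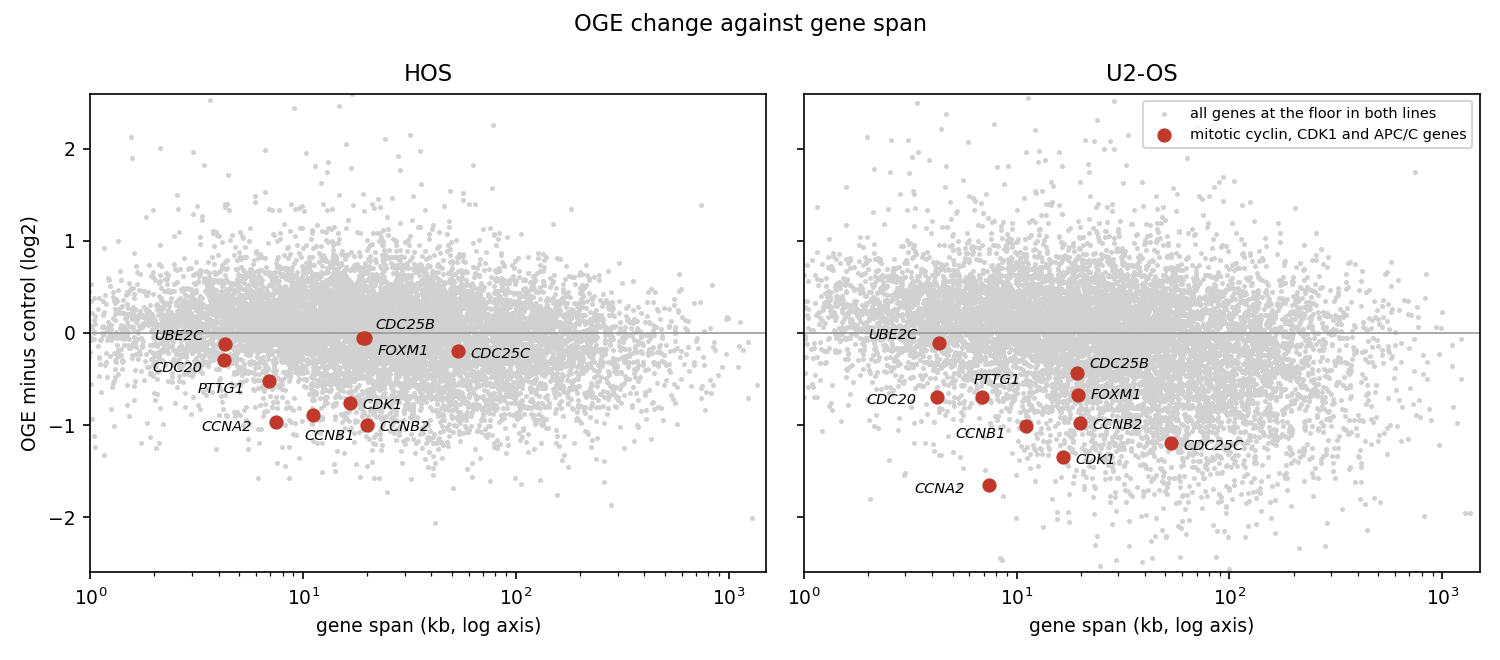
OGE minus control (log2, vertical axis) against gene span (kb, log axis) in HOS (left) and U2-OS (right) for the 10 genes (red) and all genes at the floor in both lines (grey); 1 gene in HOS, 28 in U2-OS and 272 spanning under 1 kb lie outside the axes. CCNA2 at 7.44 kb lies at -1.65 in U2-OS, and UBE2C at 4.31 kb lies near 0 in both lines.

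Outside these lists, 9113 genes had a mean level at or above the median over all genes. Of those, the 5 closest to the median profile of the 10 were CSTF2T, NBAS, SARAF, FAM120B and RAPGEF2. Closeness was the Euclidean distance over the 4 arrays between values centred on each gene's mean, and it lay between 0.071 and 0.084 for the 5. CSTF2T had changes of -0.62 and -0.97, and NBAS of -0.64 and -0.91. The 10 genes themselves lay at 0.263 (CCNB1) to 0.939 (CDC25B) from their own median profile.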

How the data were processed

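The authors deposited log2 expression values, made with RMA (version not stated), per the submitters' processing notes; that they are log2 was read from their range of 0.16 to 13.41. RMA corrects background and brings arrays to a common distribution, so it hides any shift shared by all genes, and changes near background are understated. The build used to place the probe sets is not stated in the labels or files used here. Of 33297 probe sets, 19460 carried 1 gene symbol in the platform annotation of 2016, 1754 several and 12083 none; 19429 were matched by gene ID to RefSeq (GRCh38.p14). The probe set with the highest mean stood for each of the 18417 genes. Differences were computed within each line, with limma 3.58.1 in R 4.3.3, Benjamini-Hochberg adjustment over all genes and a threshold of 0.05; the fit has 1 residual degree of freedom. No arrays were identical, and the number of arrays, 1 per group, limits the precision. The limma script was tested on simulated data.

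The members and lists were chosen with earlier results of these data known. Of each of 7 lists, up to 4 genes with the largest mean change were named, besides CDKN1A, CDKN1B, FZR1, WEE1, PKMYT1, MYBL2 and PLK1. Alternatives were other thresholds and floors, quantile normalization, cyclic loess, the mean of probe sets and other limma settings.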

Additional observations from a re-analysis of the deposited data

Results flagged for a closer look

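The HOS change and the U2-OS change had opposite signs in 17 of the 82 genes of the 7 lists that reached the floor in both lines (20.7%), against 31.8% of all 10811 such genes; these differences were not tested, since each group has 1 array. The 4 described here are those that the rule for named genes or a stated later choice had already named; STAG2, with 0.26 and -1.0, and TFDP2, with 0.48 and -0.72, are others with wider gaps than MYBL2. RBL1, the pocket protein p107, had a change of 0.26 in HOS and -1.68 in U2-OS, where its OGE level of 3.01 lay below the array median. CDC25A had 0.96 in HOS and -0.33 in U2-OS. WEE1, the kinase that inhibits CDK1, had -0.14 in HOS and 0.83 in U2-OS, while its other 2 probe sets had -0.47 and -0.57 in HOS and -0.10 and -0.60 in U2-OS. MYBL2 had 0.29 in HOS and -0.34 in U2-OS.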

How the results depend on the processing

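The limma fit sets OGE against control within each line, with the line as a term; without that term the smallest adjusted p of the 10 was 0.761, against 0.228. The labels give no replicate numbers for a further block. At 1.5-fold, 4 of the 10 genes were lower in HOS, 8 in U2-OS (against 9.68% and 18.5% of genes) and 4 in both (5.82% of genes). At 3-fold, 0, 1 and 0 were, as follows from the threshold. A floor at the 75th percentile left 2 in U2-OS, since CDK1 and CDC25C lie below it. Quantile normalization and cyclic loess each gave 0 in HOS, where CCNB2 had -0.943 and -0.995, and 3 in U2-OS, where CCNB1 had -0.855 and -0.886. For 3-fold, the higher floor and these normalizations the share of all genes is not given, so these counts describe the 10 only. With quantile normalization limma called 1 of the 10 for OGE (CCNA2) and 1 between the lines (FOXM1). It called 264 and 1763 genes in all, against 0 and 354 as deposited. The smallest adjusted p of the members fitted for OGE ranged from 0.0457 to 0.761 over the limma settings, of which 1 fitted 9 of the 10. Between the lines, the other limma settings called 131 to 1326 genes. The cause was not tested. No member changed sign under quantile normalization, cyclic loess, the mean of probe sets or centring on the median of genes at the floor, which was chosen after the data were seen. The members' median lay between -0.361 and -0.425 in HOS and between -0.756 and -0.84 in U2-OS.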
